A study of Mus musculus with 2 samples.

Results

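Early proximal tubule cells with little or no Havcr1 were examined in scRNAseq libraries of 1 control and 1 ischemic mouse kidney. Havcr1 encodes kidney injury molecule-1. The members were the barcodes with 2000 to 150000 unique molecular identifiers (UMIs) and at most 55% of them from mitochondrial genes. They had at least 10 UMIs of Lrp2, Slc34a1, Slc5a12 and Slc7a13 together, at least 0.1% of all their UMIs, and more than of the distal genes Slc12a1, Slc12a3 and Aqp2. Slc5a12 and Slc5a2 together had at least 3 UMIs and more than Slc7a13, Havcr1 was below 0.05% of UMIs, and Ptprc, the pan-leukocyte gene, was at 0. Of 15110 control barcodes 2394 were members (15.8%), and of 15257 ischemia barcodes 1301 (8.53%), so 3695 of 30367 in all.

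Both kidneys came from male wildtype C57BL/6J mice of 19 weeks. The ischemia library was made from a left kidney subjected to 27 min of unilateral ischemia and 24 h of reperfusion (I/R), and the control library from a contralateral, uninjured kidney. The labels do not state whether both kidneys came from the same mouse, and a contralateral kidney is not a sham-operated one. Kidneys were digested with enzymes before capture in droplets. With 1 library per condition the difference between them has no replicate check, no test between conditions was run, and every 95% interval below covers counting error only.

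The early proximal tubule reabsorbs most of the filtered glucose, phosphate, amino acids and bicarbonate, takes up filtered proteins by endocytosis, and secretes organic anions into the urine. It makes glucose from lactate and amino acids and draws its energy from the oxidation of fatty acids in mitochondria. The proximal tubule is a main site of injury in ischemia, and Havcr1, low in healthy tubules, is a standard mark of injured proximal tubule cells.

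Control members held 55331243 of the 142686238 UMIs deposited for their library, and ischemia members 38934276 of 142959737. The median member of the control library had 20870 UMIs and 3853.5 genes, and that of the ischemia library 28966 UMIs and 4907 genes. The median mitochondrial share was 27.2% and 23.8%. Levels are given as CPM, the UMIs of a gene summed over the member cells of a library per 1000000 of all their UMIs, so they are shares of the RNA captured and not amounts per cell. Depth differed between the libraries, and its part in the ratios was not tested beyond the depth ranges, the thinning and the depth settings given below. Both libraries held 88 barcodes in common, among them 12 control and 10 ischemia members, and 0 of them were members in both. No barcode was removed as a doublet beyond the limits of the rule.

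The genes of the rule describe what was selected and support nothing further. Slc5a12, a lactate transporter of the early segments, stood at 1195 CPM in control members and 720 CPM in ischemia members. Slc5a2, the glucose transporter SGLT2, stood at 490 and 416 CPM, Slc34a1, the main phosphate transporter, at 2856 and 1647 CPM, and Lrp2, the endocytic receptor megalin, at 1340 and 720 CPM. All 4 marker genes of the early proximal tubule were thus present in both libraries, with a lower level of each in ischemia. Havcr1, which the rule limits, was at 2.62 and 94.3 CPM, and Slc7a13, the late segment gene that the rule keeps below the early genes, at 8.02 and 1.46 CPM.

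At the thresholds, the 49 ischemia members just below the Havcr1 limit (0.04% to 0.05% of UMIs) had 957 CPM of Slc34a1 and 343 CPM of Slc5a12, against 1040 and 222 CPM in the 29 cells just above it (0.05% to 0.06%). In the control library these bands held 1 and 0 cells. The limit of 3 UMIs of Slc5a12 and Slc5a2 kept 136 control and 52 ischemia members that had exactly 3, and left out 183 control and 64 ischemia cells that had 2.

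Free RNA gives UMIs in cells that do not express a gene, so shares of member cells with a UMI are set beside other cell types of the same libraries. The first were 726 control and 780 ischemia cells with at least 10 UMIs of 6 endothelial genes, more than of the proximal and distal genes of the rule. Their median depth was 4227.5 and 5338 UMIs, and Slc34a1 in them was at 362 and 132 CPM. The second were 629 control and 53 ischemia cells of the thick ascending limb, chosen by Slc12a1, with a median of 15993 and 22920 UMIs. For these shares a random draw of 2000 UMIs was taken from every cell. The endothelial cells were chosen for this after values were seen, and free RNA takes a larger part of the UMIs of a shallow cell.

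Of 10654 genes tested, those outside the rule and the mitochondrial genome with at least 200 UMIs in the members of both libraries together, 367 (3.44%) were at least 2-fold higher and 178 (1.67%) at least 2-fold lower in ischemia than in control members. The median log2 ratio over these genes was 0.13, and the 5th and 95th percentiles were -0.57 and 0.83. With the median ratio set to 1, 283 genes were higher and 242 lower, so the excess of higher over lower genes was smaller under that scaling. The plot of all tested genes shows that most of them kept a level within 2-fold.

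**Figure D1:**
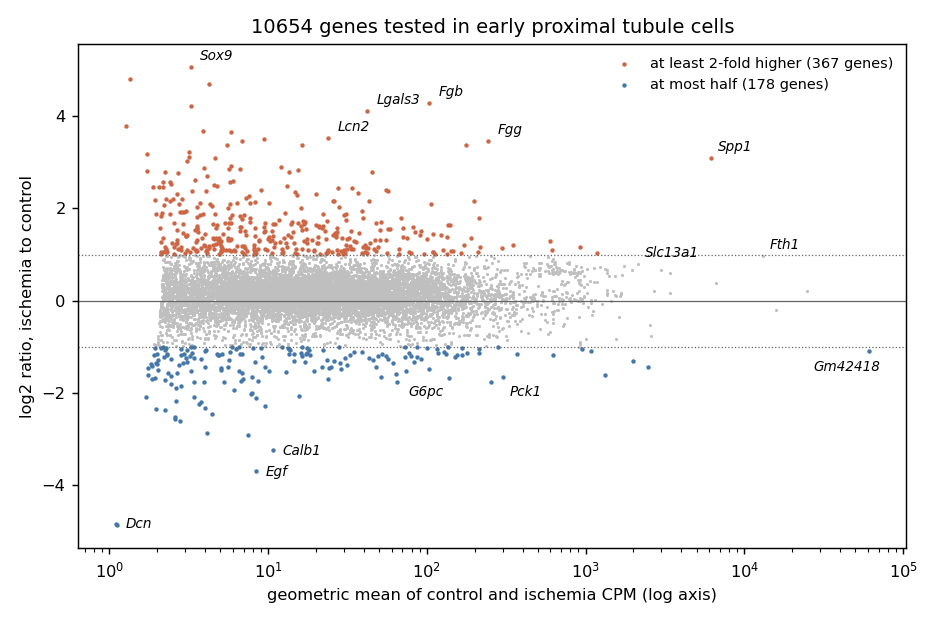
Log2 ratio of ischemia to control CPM (vertical axis) against the geometric mean of both CPM (horizontal log axis) for the 10654 tested genes in early proximal tubule cells, 1 point per gene. The 367 genes at least 2-fold higher and the 178 at least 2-fold lower are coloured, and the cloud lies slightly above 0, at a median of 0.13.

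Spp1, which encodes osteopontin, a secreted phosphoprotein of injured and distal tubules, was far higher in ischemia members. Its level was 2099 CPM in control members and 18021 CPM in ischemia members, a ratio of 8.59 (8.53–8.64). At equal depth the median control cell had 3 UMIs of Spp1 among 2000 and the median ischemia cell 24, and 78.7% of ischemia cells lay above the 95th percentile of control cells, which was 11 UMIs. Spp1 was also higher in ischemia outside the members, with 9656 and 58220 CPM in the thick ascending limb. The endothelial cells had a median of 1 and 8 UMIs of Spp1 at equal depth, and whether these were free RNA was not tested. The median of the members, 3 and 24 UMIs, exceeded it in both.

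All 3 fibrinogen genes were among the 15 highest ratios. Fga, Fgb and Fgg encode the alpha, beta and gamma chains of fibrinogen, a clotting protein made mainly by the liver as part of the acute phase response, and they lie next to each other on chromosome 3 (GRCm38 chr3:83026076-83033627, chr3:83040141-83049863 and chr3:83007724-83015049). Fga stood at 54.5 CPM in control members and 570.2 CPM in ischemia members, 10.5-fold higher (10.1–10.9). Fgb stood at 23.2 and 454 CPM, 19.6-fold higher (18.5–20.7). Fgg stood at 72.7 and 803 CPM, 11.04-fold higher (10.7–11.4). All 3 chains were thus higher together, and each was past 2-fold in the 16 alternative settings tried.

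At equal depth, a UMI of Fgg was present in 10.5% of control members and 53.9% of ischemia members, Fga in 8.27% and 48.1%, and Fgb in 4.01% and 36.5%. In endothelial cells of the same libraries the shares were 2.20% and 19.0% for Fgg, 2.34% and 14.2% for Fga, and 0.689% and 11.8% for Fgb. In the thick ascending limb, which was closer to the members in depth, they were 1.43% and 9.43% for Fgg, 0.477% and 3.77% for Fga, and 0.159% for Fgb in control, while 0 of 53 ischemia cells had Fgb, which allows a share of up to 6.72%. The members therefore had UMIs of each chain more often than either cell type, in control and in ischemia. Without thinning, the shares of members were 45.6% and 89.0% for Fgg, 42.7% and 86.5% for Fga, and 26.1% and 77.2% for Fgb. The 5 cells with the most UMIs held 7.12% of the ischemia UMIs of Fgb, 4.32% of Fga and 4.34% of Fgg.

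**Figure D2:**
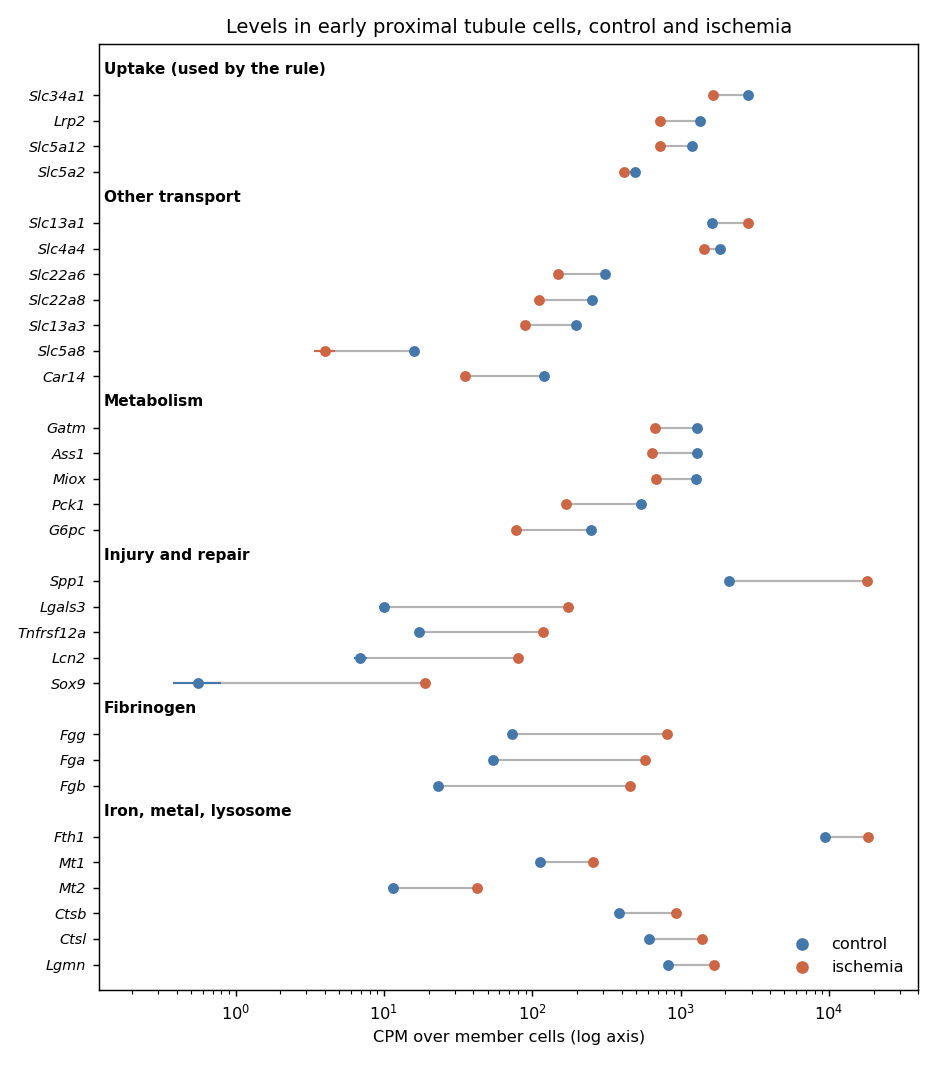
CPM over member cells (horizontal log axis) of named genes in early proximal tubule cells, 1 point for the control and 1 for the ischemia library, with 95% Poisson intervals that are mostly narrower than the points. Spp1 and the fibrinogen genes lie far to the right in ischemia, while Pck1 and G6pc lie to the left of their control values.

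The stretches upstream of the fibrinogen genes and of 2 gluconeogenic genes described below are shown because these groups moved together. They are the bases before the start of the RefSeq transcript, and end where a GENCODE M21 gene model starts earlier (build GRCm38.p6, RefSeq sequences, 5′ to 3′ on the strand of the gene). Capitals mark CTGGGA, the core of the interleukin-6 response element known from fibrinogen promoters, and GTTAAT, part of the site of the hepatocyte nuclear factor HNF1, each searched on both strands (TCCCAG and ATTAAC on the other).
Fga promoter, chr3:83025903-83026075, plus strand: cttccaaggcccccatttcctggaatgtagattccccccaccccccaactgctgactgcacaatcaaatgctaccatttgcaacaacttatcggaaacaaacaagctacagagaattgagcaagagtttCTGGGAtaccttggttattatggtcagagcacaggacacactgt
Fgb promoter, chr3:83049864-83050113, minus strand: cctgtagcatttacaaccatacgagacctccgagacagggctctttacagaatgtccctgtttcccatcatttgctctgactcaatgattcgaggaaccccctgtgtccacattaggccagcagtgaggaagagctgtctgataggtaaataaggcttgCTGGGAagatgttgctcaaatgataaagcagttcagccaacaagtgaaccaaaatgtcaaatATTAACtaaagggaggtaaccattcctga
Fgg promoter, chr3:83007474-83007723, plus strand: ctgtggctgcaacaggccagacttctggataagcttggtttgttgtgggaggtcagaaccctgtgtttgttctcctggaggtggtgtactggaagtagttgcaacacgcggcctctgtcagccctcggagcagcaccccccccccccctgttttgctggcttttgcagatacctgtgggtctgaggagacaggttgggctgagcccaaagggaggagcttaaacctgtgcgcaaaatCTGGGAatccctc
Pck1 promoter, chr2:173152823-173153047, plus strand: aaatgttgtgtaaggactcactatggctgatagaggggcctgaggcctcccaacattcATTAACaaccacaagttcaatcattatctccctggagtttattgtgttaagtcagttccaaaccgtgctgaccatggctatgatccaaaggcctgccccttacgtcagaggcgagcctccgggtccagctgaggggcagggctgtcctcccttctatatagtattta
G6pc promoter, chr11:101367466-101367560, plus strand: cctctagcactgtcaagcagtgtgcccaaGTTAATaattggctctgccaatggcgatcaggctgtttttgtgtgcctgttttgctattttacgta

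CTGGGA lay 121 to 116 bases before the RefSeq start of Fga, 91 to 86 before that of Fgb and 13 to 8 before that of Fgg. Pck1 had ATTAAC 192 to 187 bases before its start and G6pc had GTTAAT 221 to 216 before. Fgb had ATTAAC 29 to 24 bases before its start, and in Fga a further match 43 to 38 bases before the RefSeq start is not printed, because it lies past the GENCODE start. Over the 250 bases before the start, 27.0% of 32851 RefSeq promoters held CTGGGA and 6.43% held GTTAAT counting both strands. Among the 10935 promoters of tested genes, which matched 8513 genes, the shares were 27.4% and 4.58%. Of 6 further genes searched, Slc22a6 held both motifs, Spp1 held each in 1 of its 2 promoters, Slc22a8 and Slc34a1 held GTTAAT, and Lcn2 and Socs3 held neither, so matches were found beside higher and lower genes alike. A match is a description of the letters. The motifs were chosen after the levels were seen, and binding was not measured.

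Genes of tubule injury were mostly higher in ischemia members. Of 21 genes of this list that were tested, 18 (background 3.44%) were at least 2-fold higher and 0 at least 2-fold lower, with a median log2 ratio of 2.32 against 0.13 over all tested genes. Without cells that had 3 or more UMIs of other cell types, 7 were called, as few genes still had 200 UMIs. Over all genes 157 of 2622 tested there were higher. Of the 20 injury genes that gave a ratio there, 17 had at least 2-fold (median log2 2.42). No share over all genes without the UMI minimum was computed there, and ratios below the minimum rest on few UMIs. Of the 18, the share of ischemia members with a UMI at equal depth was above that of endothelial cells for 4, namely Spp1, Krt8, Tnfrsf12a and Gdf15. For 4 the intervals of the 2 shares overlapped, and for 10 the share was below. Endothelial cells themselves express several of these, such as Vim, Anxa2, Tmsb10 and S100a11, so for those genes they are no measure of free RNA.

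Krt8, a keratin of simple epithelia, stood at 49.8 CPM in control members and 141 CPM in ischemia members (2.83-fold, 2.70–2.96), and was found at equal depth in 8.40% and 19.4% of members against 3.86% and 10.1% of endothelial cells. Tnfrsf12a, the receptor of the cytokine TWEAK, stood at 17.2 and 118 CPM (6.89-fold, 6.42–7.39). Gdf15, a secreted stress cytokine, stood at 22.4 and 62.5 CPM (2.79-fold, 2.60–2.99). These genes were less abundant than Spp1, yet found in more members than endothelial cells after I/R. Sox9, a transcription factor of tubule repair, went from 0.560 to 18.9 CPM (33.7-fold), the highest ratio among tested genes in this setting, but 17.5 after thinning, where Serpina10 had 43.2. It rested on 31 control and 735 ischemia UMIs, and at equal depth 2.69% of ischemia members had a UMI against 1.79% of endothelial cells, with overlapping intervals, so a difference between these shares was not detectable at this depth.

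Lcn2, which encodes the iron-carrier binding protein NGAL and is made in distal tubules after injury, went from 6.94 to 80.6 CPM in members. Its share at equal depth, 1.71% and 10.8%, was below that of endothelial cells (5.10% and 29.2%), and in the thick ascending limb it went from 337 to 2823 CPM. The Lcn2 share of members was thus not above that of cells of another type, and its source was not tested. Clu, clusterin, went from 24.1 to 126 CPM, with a share of 20.1% of ischemia members against 45.3% of endothelial cells, and was at 3965 CPM in the thick ascending limb of the ischemia library. Lgals3, galectin-3, stood at 10.05 and 175 CPM, with a ratio of 20.9 in members above 10000 UMIs and of 3.44 and 2.95 in the depth ranges below. Its share of ischemia members, 17.4%, had an interval that overlapped that of endothelial cells (14.1%). Within the list, Cd44, the hyaluronan receptor, went the other way, from 13.4 to 6.78 CPM (0.51-fold).

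Among the other genes with the 15 highest ratios, Serpina10, an inhibitor of coagulation factors, stood at 0.831 and 21.7 CPM, and Rbp4, the plasma carrier of retinol, at 0.253 and 7.09 CPM. Clstn2, a calsyntenin, stood at 1.08 and 13.9 CPM, and Rad51b, a DNA repair gene, at 5.08 and 53.1 CPM. Each of these 4 was found in more ischemia members than endothelial cells at equal depth, with 3.31% against 1.28% for Serpina10 and 8.69% against 1.54% for Rad51b. Cd14, the co-receptor for lipopolysaccharide, stood at 1.64 and 20.9 CPM, with shares of 3.61% and 3.72% whose intervals overlapped. The ratio of Slc14a2, a urea transporter of the inner medulla, came from few cells, as 5 cells held 93.1% of its ischemia UMIs. Pxdc1, Dysf and Plekho1, all more frequent in endothelial cells, complete the 15 genes with Sox9, Lgals3, Lcn2 and the fibrinogen chains.

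Immediate early genes, transcription factors and regulators that cells switch on within minutes of a stimulus, were mostly higher. Of 15 tested, 11 (background 3.44%) were at least 2-fold higher and 0 lower, with a median log2 ratio of 1.12. The 11 became 6 with at most 25% mitochondrial UMIs (median 0.79), and 7 with the median ratio set to 1 or after thinning. Without cells that had 3 or more UMIs of other cell types 6 were called, as fewer genes had 200 UMIs. Of the 14 that gave a ratio there, 12 had at least 2-fold (median 1.36), again without a share over all genes to set beside them. Atf3 stood at 11.9 and 64.8 CPM, Egr1 at 16.3 and 59.6 CPM, Klf6 at 37.0 and 129 CPM, and Myc at 2.02 and 11.3 CPM, while Jun stood at 132 and 231 CPM, short of 2-fold. In cells outside the members Atf3 stood at 219 and 279 CPM and Egr1 at 235 and 305 CPM, higher than in members in both libraries. At equal depth 0 of the 11 genes had a share of ischemia members above that of endothelial cells, 2 had overlapping intervals and 9 were below, and endothelial cells also express these genes. Both kidneys were digested with enzymes, and the part of free RNA and of digestion in these levels was not tested.

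Of 9 tested genes of cytokines, chemokines and adhesion, 6 (background 3.44%) were at least 2-fold higher and 0 lower (median log2 ratio 1.24). Il34, a ligand of the macrophage receptor Csf1r, stood at 12.3 CPM in control members and 55.1 CPM in ischemia members (4.48-fold, 4.11–4.89). It was found at equal depth in 2.30% and 9.76% of members, against 0.964% and 2.18% of endothelial cells. Il34 was thus higher in ischemia and, in the ischemia library, more frequent in members than in endothelial cells. Cxcl1, a neutrophil chemokine, stood at 2.11 and 16.0 CPM, with shares of 2.84% and 2.69% in ischemia that overlapped. Socs3, the feedback inhibitor of cytokine receptors of the interleukin-6 family, stood at 5.13 and 35.6 CPM, and endothelial cells had it more often. Cxcl10, an interferon-induced chemokine, stood at 1.39 and 8.60 CPM, with 76.1% of its ischemia UMIs in 5 cells. Tnf was listed at 0 in control members and 0.180 CPM in ischemia members.

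Of 8 tested genes of the interferon response and of MHC class I, 4 (background 3.44%) were at least 2-fold higher and 0 lower (median log2 ratio 0.93). Irf1, an interferon-induced transcription factor, stood at 4.86 and 21.3 CPM, and Ifi27 at 26.7 and 59.4 CPM. For all 4 of these genes the share of ischemia members was below that of endothelial cells. B2m, the common chain of class I molecules, stood at 100.2 and 122 CPM and H2-K1 at 62.9 and 82.3 CPM, so these did not pass 2-fold.

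Of 12 heat shock genes 1 (background 3.44%) was at least 2-fold higher, Hspb1, with a median log2 ratio of 0.41, and of 14 genes of the unfolded protein and integrated stress response 3 were higher (0.29). Hspa5, the endoplasmic reticulum chaperone BiP, stood at 491 CPM in both libraries. The 3 higher genes were Asns, Ddit4 and Nupr1, the last with 85.0% of its ischemia UMIs in 5 cells. Of 8 p53 targets 2 (background 3.44%) were higher, Gdf15, also in the injury list, and Btg2, also in the immediate early list. Of 4 tested cell cycle genes 1 (background 3.44%) was higher, Mcm5, at 1.34 and 6.22 CPM. In ischemia the shares of members with Hspb1, Ddit4, Nupr1 and Btg2 were below those of endothelial cells, and those with Asns and Mcm5 overlapped. Mki67, a mark of dividing cells, was at 0.596 and 0.462 CPM. Both metallothioneins, metal-binding proteins, were past 2-fold (background 3.44%), with a median log2 ratio of 1.54 (Mt1 at 112 and 258 CPM, Mt2 at 11.5 and 42.4 CPM). Their shares of ischemia members were below those of endothelial cells, and Mt1 stood at 2764 and 7948 CPM in the thick ascending limb.

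Genes of iron storage and of antioxidant defence were among the most abundant of the members. Fth1, the heavy chain of ferritin, stood at 9366 CPM in control members and 18355 CPM in ischemia members (1.96-fold). The ratio was 1.09 in members of 2000 to 5000 UMIs and 1.96 above 10000 UMIs. At equal depth the median cell had 15 and 30 UMIs of it among 2000, against 6 and 8 in endothelial cells. Ftl1, the light chain, stood at 5832 and 7578 CPM (1.30-fold), and Gpx3, the plasma glutathione peroxidase made in the kidney, at 16826 and 14649 CPM (0.87-fold). Of 16 tested genes of this list 0 were 2-fold lower (median log2 ratio 0.43). Only Hmox1, the inducible heme oxygenase, was at least 2-fold higher (background 3.44%), at 16.3 and 35.2 CPM. The share of ischemia members with Hmox1 overlapped that of endothelial cells, and Hmox1 was past 2-fold in 13 of 16 alternative settings. Gclc, the catalytic subunit for glutathione synthesis, stood at 55.01 and 105 CPM (1.92-fold).

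In the endocytic list, 3 lysosomal proteases were higher. Ctsb, cathepsin B, stood at 383 and 933 CPM (2.44-fold, 2.40–2.48), Ctsl, cathepsin L, at 615 and 1382 CPM (2.25-fold, 2.22–2.28), and Lgmn, legumain, at 818 and 1678 CPM (2.05-fold, 2.03–2.08). These 3 proteases were the only genes of 9 tested past 2-fold (background 3.44%), and all 3 were found in more members than endothelial cells at equal depth, in both libraries. Cubn, cubilin, a receptor that works with megalin, stood at 317 and 191 CPM (0.60-fold). Its partners Amn and Dab2 had ratios of 0.97 and 0.97.

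**Figure D3:**
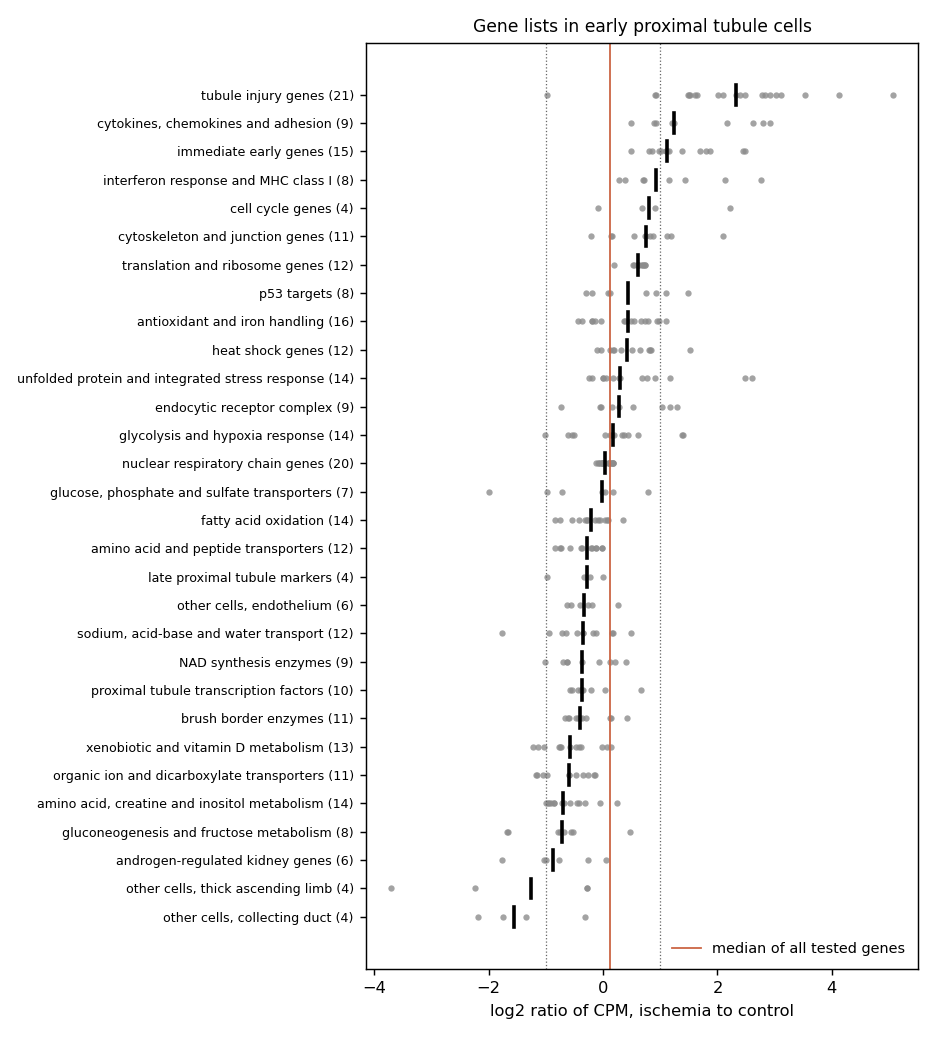
Log2 ratio of ischemia to control CPM (horizontal axis) for the tested members of each gene list in early proximal tubule cells, 1 point per gene, with the median of all tested genes (0.13) as a coloured line. Lists with at least 4 tested genes are drawn, black bars are their medians, dotted lines mark 2-fold, and the injury list lies highest (median 2.32), the respiratory chain list is narrow around 0.03, and the gluconeogenesis list lies at -0.72.

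The genes of 2 key steps of gluconeogenesis were lower in ischemia members. Pck1, the cytosolic PEP carboxykinase that sets the pace of gluconeogenesis, stood at 536 CPM in control members and 169 CPM in ischemia members (0.31-fold, 0.31–0.32). G6pc, the glucose-6-phosphatase that releases free glucose, stood at 248 and 77.7 CPM (0.31-fold, 0.30–0.33). At equal depth 55.5% of control members and 25.7% of ischemia members had a UMI of Pck1, and 34.0% and 14.2% a UMI of G6pc. These shares were above those of endothelial cells in both libraries, which were 18.2% and 4.49% for Pck1 and 9.09% and 0.897% for G6pc. Without thinning, 93.9% and 76.6% of members had Pck1 and 83.2% and 58.3% had G6pc. Of 8 tested genes of this list, these 2 (background 1.67%) were at least 2-fold lower and 0 higher, with a median log2 ratio of -0.72. Fbp1 (0.62-fold), Pcx (0.59-fold) and Khk (0.68-fold) were lower by less, and Fbp2 had a ratio of 1.39.

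Transporters of organic anions and dicarboxylates, which secrete drugs and toxins or recover citric acid cycle intermediates, included 3 lower genes. Slc22a6, the organic anion transporter OAT1, stood at 308 and 148 CPM (0.48-fold, 0.47–0.50). Slc22a8, OAT3, stood at 251 and 111 CPM (0.44-fold, 0.43–0.46), and Slc13a3, a sodium-dicarboxylate cotransporter, at 197 and 88.9 CPM (0.45-fold, 0.43–0.47). Of 11 tested, these 3 (background 1.67%) were at least 2-fold lower and 0 higher, and 11 had a ratio below 1 (median log2 ratio -0.59). Without cells that had 3 or more UMIs of other cell types, 1 gene was at least 2-fold lower, with Slc22a8 at a ratio of 0.52 and Slc13a3 at 0.56. In that setting not all ratios of the list stayed below 1, as Slc17a3 had 1.24, Abcc4 1.06 and Slc47a1 1.02. It left out 90.2% of control and 81.6% of ischemia members. Leaving out only cells with at least 0.1% of UMIs of other cell types (Umod and Cldn10 not counted) gave 3 lower genes and a median of -0.60. Slc22a12, the urate transporter URAT1, stood at 373 and 247 CPM. All 3 genes past 2-fold were more frequent in control members than in endothelial cells.

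Among transporters of glucose, phosphate and sulfate, Slc13a1, the sodium-sulfate cotransporter, was higher, at 1633 and 2823 CPM (1.73-fold, 1.71–1.74). At equal depth the median control cell had 2 UMIs of Slc13a1 and the median ischemia cell 5. Slc2a2, the basolateral glucose transporter GLUT2, had a ratio of 0.98. Slc34a3, a second phosphate transporter, stood at 57.4 and 34.8 CPM (0.61-fold). Slc5a8, a monocarboxylate transporter found mostly in later segments, stood at 15.9 and 3.98 CPM (0.25-fold), and its share of control members, 2.67%, overlapped that of endothelial cells (2.62%). It was the only gene of 7 tested past 2-fold (background 1.67%). The list thus had genes on both sides, with a list median of -0.02.

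Of 12 genes of sodium, acid-base and water transport, 1 (background 1.67%) was at least 2-fold lower and 0 higher (median log2 ratio -0.35). This was Car14, a membrane carbonic anhydrase, at 121 and 35.3 CPM (0.29-fold, 0.28–0.31), found at equal depth in 18.4% and 5.92% of members against 2.89% and 0.385% of endothelial cells. Slc4a4, the basolateral bicarbonate cotransporter, had a ratio of 0.78, Slc9a3, the sodium-hydrogen exchanger, 0.64, and Aqp1, the water channel, 0.52. Without cells that had 3 or more UMIs of other cell types, Slc9a3 had a ratio of 1.02. Of 12 amino acid and peptide transporters 0 passed 2-fold either way and 12 had a ratio below 1 (median -0.28). Without cells that had 3 or more UMIs of other cell types, 6 of 12 had a ratio below 1. Leaving out only cells with at least 0.1% of such UMIs gave medians of -0.30 for this list and -0.34 for the sodium list. Slc6a19, the main neutral amino acid transporter, stood at 264 and 158 CPM (0.60-fold), while Slc7a7, a basolateral transporter of cationic amino acids, had a ratio of 0.99. Of 11 brush border enzymes 0 passed 2-fold (median -0.40), with Ggt1, gamma-glutamyltransferase, at 0.81.

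Enzymes of amino acid, creatine and inositol metabolism mostly had ratios below 1 without passing 2-fold. Gatm, which makes the precursor of creatine, stood at 1286 and 666 CPM (0.52-fold), Ass1, of arginine synthesis, at 1286 and 643 CPM (0.50-fold), and Miox, which breaks down inositol, at 1264 and 676 CPM (0.54-fold). Of 14 tested, 0 passed 2-fold, 13 had a ratio below 1 and the median log2 ratio was -0.71. With at most 25% mitochondrial UMIs, 5 of the 14 were at least 2-fold lower (median -0.82), as were 193 of all 9636 genes tested there. Ass1 lay at the threshold and was past it in 8 of 16 alternative settings. Of 13 genes of xenobiotic and vitamin D metabolism 3 (background 1.67%) were at least 2-fold lower and 0 higher (median -0.58). They were Cyp2e1, a cytochrome that oxidizes ethanol and acetone (239.6 and 117 CPM), Cyp4a14, a fatty acid hydroxylase (314 and 144 CPM), and Cyp27b1, which activates vitamin D (3.34 and 1.44 CPM). Of 9 enzymes of NAD synthesis and its branches 1 (background 1.67%) was lower, Acmsd, which diverts the pathway away from NAD, at 193 and 96.1 CPM (0.50-fold, 0.48–0.52).

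Nuclear genes of the respiratory chain differed little. Of 20 tested genes of the respiratory chain and ATP synthase 0 passed 2-fold, and all ratios lay between 0.92 and 1.13, with a median log2 ratio of 0.03. Of 14 genes of fatty acid oxidation 0 passed 2-fold (median -0.21), with Acaa2, the thiolase of the last step, at 0.56 and Acadl, a long-chain dehydrogenase, at 1.28. The genes of the mitochondrial genome summed to 278597 and 244326 CPM, a quantity the rule limited. Of 10 transcription factors of the proximal tubule 0 passed 2-fold (median -0.38), with Hnf4a, a regulator of proximal tubule genes, at 179 and 137 CPM and Pax8, a factor of nephron development, at 56.4 and 89.0 CPM. Of 14 genes of glycolysis and the hypoxia response 2 (background 3.44%) were higher, Pfkp and Pdk4, and 1 (background 1.67%) lower, Hk1. The shares for Pfkp and Pdk4 overlapped those of endothelial cells in ischemia, that for Hk1 in control was below, and Hk1 was past 2-fold in 10 of 16 alternative settings and had a ratio of 1.23 without cells that had 3 or more UMIs of other cell types.

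Of 12 tested genes of translation 0 passed 2-fold and 12 had a ratio above 1, from 1.14 for Eef2, an elongation factor, to 1.65 for Rpl13, a ribosomal protein (median log2 ratio 0.61). In the shallowest members, with 2000 to 5000 UMIs, Rpl13 had a ratio of 0.96 and Rps2, another ribosomal protein, of 0.96. All ribosomal protein genes together took 4.69% of control and 7.15% of ischemia UMIs. Of 11 genes of the cytoskeleton and junctions 3 (background 3.44%) were higher, Tuba1a, Tubb5 and Myl12a (median 0.74), each in a smaller share of ischemia members than of endothelial cells, and Actb, beta-actin, had a ratio of 1.68. Gm42418, a transcript that overlaps ribosomal RNA, took 8.85% of UMIs in control and 4.17% in ischemia members. Cmss1 and Camk1d, also among the 10 most abundant genes of control members outside the mitochondrial genome, had ratios of 0.37 and 0.40, and in cells outside the members they went from 4249.6 to 1684 CPM and from 2354 to 987 CPM. Malat1, a nuclear RNA, had a ratio of 1.16, and Fxyd2, a subunit of the sodium pump, of 1.11.

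Kap, an androgen-regulated protein of male mouse kidney, stood at 3372 and 1988 CPM in members and at 38925 and 36760 CPM in late proximal tubule cells. Its share of members at equal depth, 75.8% and 61.2%, was below that of endothelial cells (95.3% and 88.5%), while its level was above theirs (2144 and 1244 CPM). The source of Kap in members was not tested. Of 6 androgen-regulated genes 2 (background 1.67%) were at least 2-fold lower, Cyp2e1 and Slco1a1, an organic anion carrier (median log2 ratio -0.88). The share of control members with Slco1a1 overlapped that of endothelial cells.

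**Figure D4:**
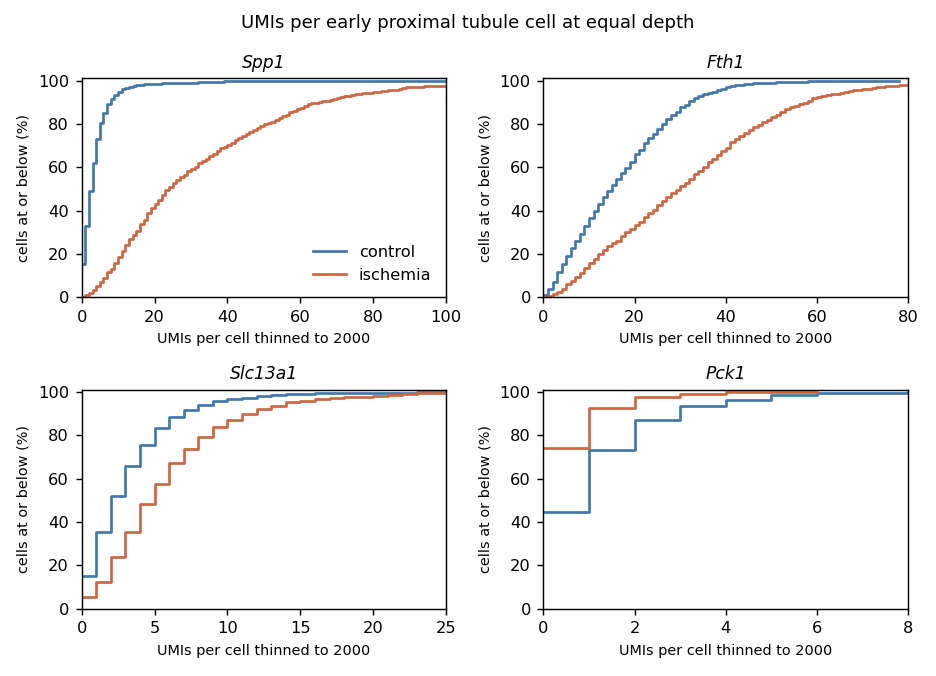
Cumulative share of early proximal tubule cells (vertical axis, %) at or below a number of UMIs of a gene (horizontal axis) after each cell was thinned to 2000 UMIs, as 1 line for control and 1 for ischemia cells. The Spp1 and Fth1 lines of ischemia lie to the right (medians 24 against 3, and 30 against 15), and the Pck1 line of ischemia starts higher, as 25.7% of ischemia and 55.5% of control cells had a UMI.

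Members differed among themselves by their Havcr1 share, which the rule used. Of the ischemia members 505 had 0 UMIs of Havcr1, 370 had a share below 0.01%, and 426 had 0.01% to 0.05%, with median depths of 19233, 40294 and 28414.5 UMIs. In the control these ranges held 2297, 82 and 15 cells. At equal depth 15.6% of ischemia members and 16.4% of endothelial cells of the same library had a UMI of Havcr1, with overlapping intervals, and the part of free RNA in these ranges was not tested. Spp1 stood at 12418, 18195 and 22968 CPM across the 3 ranges, Fga at 389, 570.4 and 736 CPM, Fgb at 247, 451 and 646 CPM, and Fgg at 556, 789.9 and 1043 CPM. Ischemia members without a UMI of Havcr1 thus still had more Spp1 and fibrinogen RNA than control members.

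Pck1 stood at 234, 169.6 and 107 CPM across the same ranges, G6pc at 120.3, 83.7 and 32.0 CPM, and Gatm at 909.5, 732 and 369.5 CPM, each lowest where Havcr1 was highest. Slc34a1, a gene of the rule, stood at 2085, 1678 and 1211 CPM. Not every gene followed this order. Slc22a6 stood at 131, 122 and 194 CPM, Lcn2 at 90.2, 102 and 48.3 CPM, and Kap at 1407, 1491 and 3074 CPM. In the 120 early ischemia cells at or above the Havcr1 limit, with a median of 38816.5 UMIs, Spp1 reached 27271 CPM and Fgg 1223 CPM, while Pck1 was at 68.5, G6pc at 10.6 and Gatm at 187 CPM. As the ranges differ in depth and a shallow cell more readily shows no Havcr1, these are descriptions without a test.

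**Figure D5:**
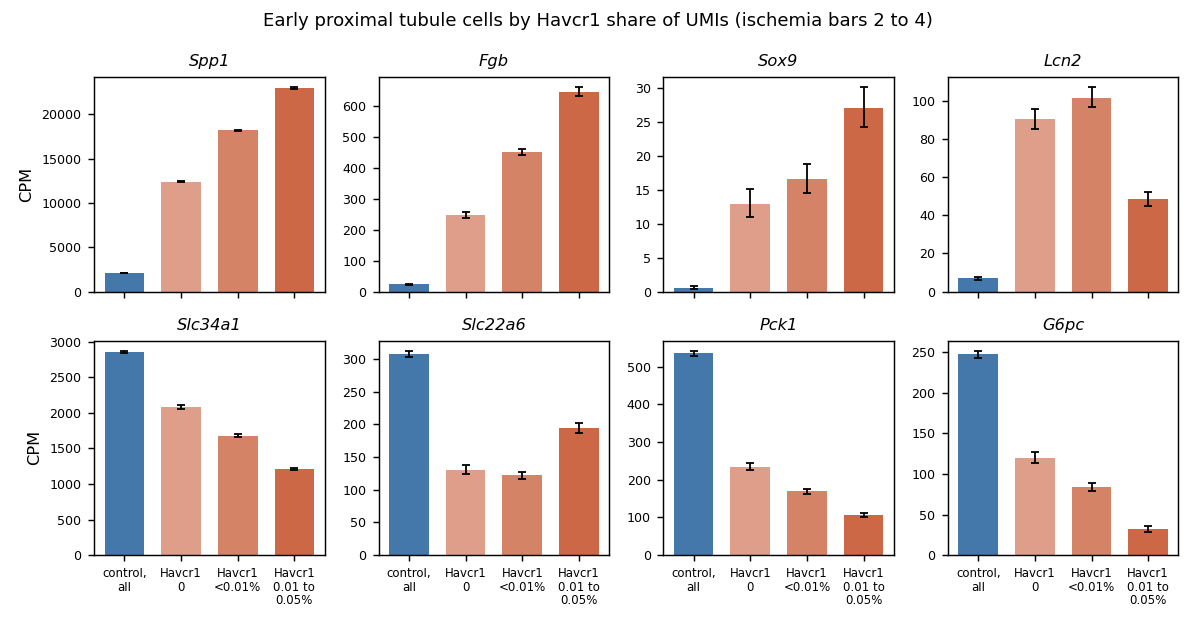
CPM (vertical axes, from 0) of selected genes in control members and in ischemia members split by their Havcr1 share of UMIs, 1 bar per group, with 95% Poisson intervals. From the second to the fourth bar Spp1 and Fgb go up (Fgb from 247 to 646 CPM) and Pck1 and G6pc go down (Pck1 from 234 to 107 CPM).

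Members were also split by the balance of Slc5a2 and Slc5a12, both genes of the rule. Slc5a2 took 29.1% of the UMIs of both genes in control and 36.6% in ischemia members, and cells with at least as many UMIs of Slc5a2 numbered 724 (30.2%) and 568 (43.7%). In these cells Spp1 went from 2654 to 20559 CPM and Pck1 from 534 to 152 CPM, and in the others Spp1 went from 1938 to 16321 CPM and Pck1 from 537 to 179.8 CPM. Fgb went from 26.3 to 456 CPM and from 22.3 to 452 CPM. The direction was thus the same in both, with similar levels of Fgb.

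Spp1, Fgb and G6pc kept their direction when members were split by mitochondrial share and by depth. In members with at most 25% mitochondrial UMIs Spp1 went from 2459 to 20276 CPM and G6pc from 268 to 65.0 CPM, and above 25% from 1857 to 14302 CPM and from 234 to 98.7 CPM. From the shallowest to the deepest cells (2000 to 5000, 5000 to 10000 and above 10000 UMIs) the ratios of Spp1 were 7.57, 6.29 and 8.63, those of Fgb 34.0, 12.3 and 19.6, and those of G6pc 0.36, 0.65 and 0.30. The Fgb ratio of 34.0 rested on few control UMIs, with a control level of 5.39 CPM against 18.6 and 23.7 CPM in the deeper ranges. G6pc thus stayed below 1 in every depth range and passed 2-fold in 2 of the 3. Other genes did not keep their direction. In members of 2000 to 5000 UMIs the ratio was 0.96 for Rpl13, 0.96 for Rps2 and 1.04 for Slc5a12, a gene of the rule, against 1.65, 1.62 and 0.59 above 10000 UMIs. Gpx3 had a ratio of 1.03 in members of 5000 to 10000 UMIs.

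Late proximal tubule cells, which met the same limits but had at least 3 UMIs of Slc7a13 and no fewer than of Slc5a12 and Slc5a2, numbered 348 in control and 69 in ischemia. Fgb stood there at 2.37 and 132 CPM, Fgg at 31.6 and 359 CPM, Spp1 at 387 and 4147 CPM, and Slc13a1 at 1205 and 2344 CPM, so these genes went the same way as in the early cells. Pck1 stood at 491 and 447 CPM, G6pc at 129.7 and 92.4 CPM, Slc22a6 at 1046 and 967 CPM, and Slc22a8 at 221 and 180.2 CPM, with ratios of 0.91, 0.71, 0.92 and 0.82. Ctsl stood at 488 and 638 CPM and Ass1 at 976 and 792 CPM. The difference between early and late cells was not tested.

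The 15 lowest ratios were mostly of genes at low levels in members and higher levels in other cells. Egf, a growth factor of the thick ascending limb and distal tubule, stood at 30.3 and 2.34 CPM in members, and at 639 and 22.6 CPM in the cells outside them. Calb1, calbindin of the connecting tubule, stood at 32.8 and 3.47 CPM, and at 744 and 134 CPM outside. Wfdc15b, Abca13, Pgam2, Sostdc1, Sfrp1, Slc16a7, Dpys, Rhcg, Ckb, Tmem52b and Kcnj1, the potassium channel ROMK, were likewise higher outside the members in both libraries and lower there in ischemia. Of the 15 genes, 0 had a share of control members above that of endothelial cells, 7 had overlapping intervals and 8 were below. Fst and Dcn came from few cells, with 95.5% and 95.7% of their control UMIs in 5 cells. The source of these UMIs was not tested, and the rule itself limits other genes of the distal nephron.

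Markers of other cell types were at low levels in members. Those of the thick ascending limb summed to 386 CPM in control and 268 CPM in ischemia members, with Cldn10 the most abundant, and 2 of 4 tested were at least 2-fold lower (background 1.67%). Those of the distal convoluted and connecting tubule summed to 116 and 25.9 CPM, with Slc8a1 the most abundant, 3 of 3 tested were lower, and Pvalb was listed at 0 in ischemia. Those of the collecting duct summed to 54.1 and 21.2 CPM, with Atp6v1g3 the most abundant, 3 of 4 tested were lower, and Slc4a1 was listed at 0 in ischemia. Podocyte markers summed to 9.81 and 4.98 CPM, with Podxl the most abundant and 1 of 2 tested lower. The summed level of each of these lists was lower in ischemia members.

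Endothelial markers summed to 28.8 and 23.7 CPM, with Plvap the most abundant, and 0 of 6 tested passed 2-fold. Macrophage markers summed to 15.5 and 16.1 CPM, with Cd74 the most abundant, and 0 of 1 tested passed 2-fold. Neutrophil markers summed to 1.03 and 5.24 CPM, against 205 and 993 CPM outside the members, with S100a9 the most abundant and 0 tested. The sums were 0.325 and 0.385 CPM for T and B cells, with Ms4a1 the most abundant, 5.95 and 4.08 CPM for fibroblasts and pericytes, with Col1a2 the most abundant in control, and 1.48 and 1.13 CPM for red blood cells, with Hbb-bs the most abundant. Genes of T and B cells were at or near 0, with Cd3d listed at 0 in control. The part of these cells and of their free RNA in the ratios above was not tested beyond the endothelial shares.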

How the data were processed

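scRNAseq libraries of 1 control and 1 ischemic kidney were analysed. The authors deposited raw UMI counts per gene and barcode, made with Cell Ranger 7.0.0 per the submitters' processing notes and aligned to mm10, not normalized. The flow cytometry, RT-PCR and culture experiments of the study were not analysed here.

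Members were selected by the rule given at the start, and counts were summed over them per library. CPM carry exact Poisson intervals, ratios exact conditional binomial intervals and shares Clopper-Pearson intervals, all at 95%. Cells were not treated as replicates, so there is no test and no p-value. A gene was tested for size with at least 200 UMIs in members of both libraries together, and was past 2-fold at a ratio of at least 2 or at most 0.5. Genes used by the rule and mitochondrial genes were left out. For shares of cells, each cell was thinned to 2000 UMIs (seed 42).

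The members and gene lists were chosen with earlier results of these data known. The genes named are members of 40 fixed lists, the 15 highest and 15 lowest ratios and the 10 most abundant genes. Some results are not reported here. The endothelial cells used for comparison, the upstream motifs and 3 of the 16 alternatives were chosen after seeing the data. Doublets were not removed in the values given. Scrublet (scanpy 1.11.5) called 114 of 7482 control and 69 of 6670 ischemia barcodes, and an alternative left out the 8% with the highest scores.

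Steps ran in Python 3.11.15 with numpy 2.4.6, scipy 1.17.1 and pandas 2.3.3. The computation was tested on simulated data. Promoter sequences are RefSeq (GRCm38.p6) and gene positions GENCODE M21. The alternatives are given at the end.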

Additional observations from a re-analysis of the deposited data

How the results depend on the processing

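Of the 105 named genes past 2-fold, 66 stayed past it in every one of the 16 alternative settings that gave a value, among them Spp1, Fga, Fgb, Fgg, Pck1, G6pc and Ctsb. Of the 243 named genes not past it, 201 stayed so. A mitochondrial limit of 25% left 962 control and 725 ischemia members, and 6 immediate early genes were then higher, against 11. With Havcr1 at 0 UMIs, 505 ischemia members remained and 177 genes were higher. With the median ratio set to 1, which shifts all log2 ratios by 0.13, 7 immediate early genes were higher. A gene minimum of 50 UMIs gave 604 higher and 403 lower genes, and a minimum of 1 UMI gave 3021 and 3124. Thinning to 2000 UMIs gave 533 higher and 279 lower genes, with 7 higher immediate early genes. A minimum of 5000 UMIs per cell gave 369 higher and 175 lower genes. Weighting control members to the depth ranges of ischemia members gave 366 and 177. Leaving out cells with 3 or more UMIs of other cell types kept 235 control and 240 ischemia members, with 157 genes higher and 29 lower among 2622 tested. Of the injury list 7 genes were then higher (18 before), of the immediate early list 6, and of the organic ion list 1 lower (3 before). The minimum of 200 UMIs took most of the injury and immediate early calls there, as 17 of 20 and 12 of 14 genes that gave a ratio had at least 2-fold. No share over all genes without that minimum was computed for this setting, and ratios below it rest on few UMIs. In that setting Hk1 (1.23), Cxcl10 (0.195) and Hsd11b2 (1.33) turned to the other side of 1. Where calls changed, the cause was not tested beyond the fewer cells and genes that a setting left.

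Leaving out Gm42418 from the totals gave 321 higher and 217 lower genes, and leaving out barcodes of both libraries 366 and 178. Leaving out cells with at least 0.1% of UMIs of other cell types (Umod and Cldn10 not counted) gave 382 and 155. The last setting kept 2284 control and 1280 ischemia members, with 18 injury and 12 immediate early genes higher and 3 organic ion genes lower. These 3 settings were chosen after seeing the data. Lgmn was past 2-fold in 11 of 16 settings, Acmsd in 11, Slc22a6 in 13, and Slc22a8 and Slc13a3 in 15. With 1 library per condition no replicate could be left out. No paired analysis was possible because each condition has 1 library. The limits are the lack of replicates, the contralateral control, a summed level that deep cells weigh on most, and free RNA, which was not separated from expression.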
